A study of Mus musculus with 6 samples.

Results

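The globin genes encode the protein chains of hemoglobin. The adult and embryonic globins of the mouse and the alpha-globin chaperone were chosen by name, 8 genes in all: Hba-a1, Hba-a2 and Hba-x of the alpha locus, Hbb-bs, Hbb-bt, Hbb-bh1 and Hbb-y of the beta locus, and Ahsp. Of these, 4 were among the 20097 genes listed in the data, namely the adult genes Hba-a1, Hba-a2, Hbb-bs and Hbb-bt. The embryonic genes Hba-x, Hbb-bh1 and Hbb-y had no row in the count files, in which no gene had fewer than 10 reads over the 6 libraries, and they were not analysed here. Ahsp was matched to no identifier in the gene name tables used and was not analysed here. The RNA came from c-Kit+ bone marrow cells of the mouse, a population enriched for blood stem and progenitor cells because c-Kit is the receptor for stem cell factor. There were 3 libraries labelled WT and 3 labelled Runx1 KO, and the comparison asks how the globin transcripts differ where the transcription factor RUNX1 is disrupted. The labels give no strain, age or sex, do not say when, how or in which cells Runx1 was disrupted, and do not say whether the replicates are separate animals, so the p-values below measure only the spread between these libraries.

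Hemoglobin is assembled from alpha-type and beta-type globin chains, each holding a heme group, and both loci are switched from embryonic to adult genes during development. Transcription rises late in red cell maturation under GATA1, KLF1 and the TAL1, LMO2 and LDB1 complex, which act through distant enhancers, and most globin RNA is made after c-Kit has begun to leave the cell surface. Heme supply, chain balance and chaperoning are controlled together with globin output, since free chains and free heme harm the cell.

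Depth was similar in all libraries, with 23297526 to 26793380 reads recovered from the normalised counts. The values are counts scaled by 1 size factor per library, called normalised read counts below, and 3 reads correspond to 2.88 to 3.14 of them. Runx1 transcripts themselves were more abundant under the label Runx1 KO, at 6648, 6720 and 5830 normalised reads in replicates 1 to 3 against 3031, 2799 and 3497 in WT. The log2 change was 1.04 (SE 0.10, limma adjusted p = 0.00163, n = 3 libraries a group). This value counts all reads of the gene and cannot show whether the transcript was intact, and reads by exon were not analysed here. The groups are therefore called by their labels throughout. The share of reads from mitochondrial genes was 1.17% ± 0.0546 (SD, n = 3) in WT and 0.915% ± 0.0552 in the libraries labelled Runx1 KO, without overlap, and its part in the globin result was not tested.

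The copies at each locus are nearly the same in sequence, which limits how far reads can be assigned to either. The stretches below show the only base at which the coding sequences of each pair differ, in capitals, on the coding strand in GRCm38. The alpha pair differs at 1 of 429 coding positions (C381T, Hba-a1 to Hba-a2) and the beta pair at 1 of 444 (C417T, Hbb-bs to Hbb-bt), counted from 1 at the A of the start codon. The stretches lie at chr11:32284323-32284363 (+), chr11:32297140-32297180 (+), chr7:103826672-103826712 (-) and chr7:103812663-103812703 (-), in that order.
Hba-a1: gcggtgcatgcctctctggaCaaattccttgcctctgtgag
Hba-a2: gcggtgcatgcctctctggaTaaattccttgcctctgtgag
Hbb-bs: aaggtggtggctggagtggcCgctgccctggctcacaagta
Hbb-bt: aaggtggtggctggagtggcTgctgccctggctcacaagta
Most of what separates the copies lies outside the coding sequence. Of all windows of 50 bases in the principal transcript, 67.5% in Hba-a1, 86.9% in Hba-a2, 65.8% in Hbb-bs and 58.3% in Hbb-bt were also present in the other copy. Values for a single copy are therefore uncertain, and the sums of each pair are the firmer measure. A sum does not restore shared reads if these were left out of the counts.

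The promoters are shown because the copies at each locus share regulatory sequence to different degrees and all 4 genes were lower. Each sequence is the 250 bases before the RefSeq start (GRCm38.p6): chr11:32296242-32296491 (+) for Hba-a2, chr7:103827929-103828178 (-) for Hbb-bs and chr7:103813924-103814173 (-) for Hbb-bt. Capitals mark matches to a GATA motif (AGATAA, also with a final G, also TGATAA, and that with a final G), a CACCC box (CCNCNCCC), a CCAAT box and a TATA box (TATAAA, or with a final G), with both strands searched.
Hba-a2: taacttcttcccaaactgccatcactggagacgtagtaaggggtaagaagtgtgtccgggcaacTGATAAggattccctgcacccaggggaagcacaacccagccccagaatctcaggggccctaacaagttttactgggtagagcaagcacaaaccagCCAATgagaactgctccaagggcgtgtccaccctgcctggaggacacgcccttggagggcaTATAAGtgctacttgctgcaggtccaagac
Hbb-bs: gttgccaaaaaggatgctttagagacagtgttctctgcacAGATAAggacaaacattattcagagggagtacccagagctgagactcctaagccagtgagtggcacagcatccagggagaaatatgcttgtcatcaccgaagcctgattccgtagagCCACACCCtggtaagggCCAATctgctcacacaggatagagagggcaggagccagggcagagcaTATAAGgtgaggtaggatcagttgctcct
Hbb-bt: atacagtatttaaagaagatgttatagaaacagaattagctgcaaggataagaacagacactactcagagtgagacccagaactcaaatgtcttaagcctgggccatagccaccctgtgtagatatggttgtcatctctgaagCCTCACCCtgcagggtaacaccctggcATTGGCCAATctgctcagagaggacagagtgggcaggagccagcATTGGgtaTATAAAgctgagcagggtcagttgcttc
The Hba-a1 window (chr11:32283422-32283671, +) was identical to that of Hba-a2 over all 247 aligned bases and is not repeated. The windows of Hbb-bs and Hbb-bt were identical at 178 of 257 aligned positions (69.3%). A TATA box began 27 to 30 bases before the start in all 4 windows, and a CCAAT box lay in all 4. The CACCC box as spelled above matched in both beta windows, and a GATA motif lay in the alpha windows and in Hbb-bs. Shorter spellings were not searched, and the letters CACCC alone stand unmarked in the alpha windows and in Hbb-bt. In Hbb-bt the CCAAT box matched 3 times, and a match read as ATTGG lies on the opposite strand. A RUNX motif, searched on both strands as TGTGGT and separately as TGCGGT, occurred in none of the 4 windows. Of all 32851 RefSeq windows of this length, 26.5% held a GATA motif, 45.9% a CACCC box, 33.8% a CCAAT box, 17.0% a TATA box and 18.6% a RUNX motif, so each set of letters is common and a match is a description only.

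Both adult globins fell in the libraries labelled Runx1 KO. Alpha-globin, the sum of Hba-a1 and Hba-a2, stood at 3562, 7038 and 4263 normalised reads in WT replicates 1 to 3 and at 1455, 781 and 830.4 in the libraries labelled Runx1 KO. The groups did not overlap, the highest of the latter being 1455 against a lowest WT value of 3562. Mean alpha-globin was 4954 ± 1838 (SD, n = 3) in WT and 1022 ± 376 in the libraries labelled Runx1 KO, a 4.85-fold difference, with a log2 change of -2.27 (SE 0.31, limma adjusted p = 0.00459). Beta-globin, the sum of Hbb-bs and Hbb-bt, stood at 3745, 7789 and 4402 in WT and at 1365, 673 and 681 in the libraries labelled Runx1 KO, again without overlap. Its means were 5312 ± 2170 and 906 ± 397, a 5.86-fold difference, with a log2 change of -2.56 (SE 0.35, adjusted p = 0.00466). Across all 15408 rows tested, 21.9% were called in either direction at an adjusted p under 0.05. Of all rows, 11.3% were called lower and 10.6% higher, 21.9% had all libraries labelled Runx1 KO below WT, 21.4% had them all above, 43.3% were without overlap in either direction, and the median log2 change was -0.00. Scaling to library totals instead gave 2383 rows called higher and 1371 lower, against 1631 and 1736. Being called lower was thus common in this table. A log2 change of -2 or lower among called rows was met by 2.5% of rows, and 387 rows had a lower log2 change than alpha-globin and 300 a lower one than beta-globin. In these bulk samples fewer globin-making cells and less globin RNA per cell cannot be told apart.

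Hba-a1 (ENSMUSG00000069919, chr11:32283511-32284465, + strand, 3 exons, protein coding) had 2409, 4835 and 2954 normalised reads in WT and 1065, 559 and 626 in the libraries labelled Runx1 KO. The change on the log2 scale was -2.18 (SE 0.31, limma adjusted p = 0.00548), from a mean of 3399.6 ± 1273 (SD, n = 3) to 749.8 ± 275. Hba-a2 (ENSMUSG00000069917, chr11:32296489-32297298, + strand, 3 exons, protein coding) had 1154, 2203 and 1308 against 390.2, 222 and 205. Its log2 change was -2.51 (SE 0.31, adjusted p = 0.00356), from 1555 ± 566 to 272 ± 102. Both alpha copies had their highest value in WT replicate 2, and in both every library labelled Runx1 KO lay below every WT library.

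Hbb-bs (ENSMUSG00000052305, chr7:103826534-103828096, - strand, 3 exons, protein coding) had 2879.8, 6052 and 3489 normalised reads in WT and 1062, 537 and 557 in the libraries labelled Runx1 KO. The log2 change was -2.53 (SE 0.34, limma adjusted p = 0.0045), from 4140.3 ± 1684 (SD, n = 3) to 719 ± 297. Hbb-bt (ENSMUSG00000073940, chr7:103812524-103813996, - strand, 3 exons, protein coding) had 866, 1737 and 913 against 303, 136 and 124. Its log2 change was -2.68 (SE 0.40, adjusted p = 0.0059), from 1172 ± 489.7 to 188 ± 100.2. As at the alpha locus, WT replicate 2 was the highest WT library, and replicate 1 was the highest of those labelled Runx1 KO.

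**Figure D1:**
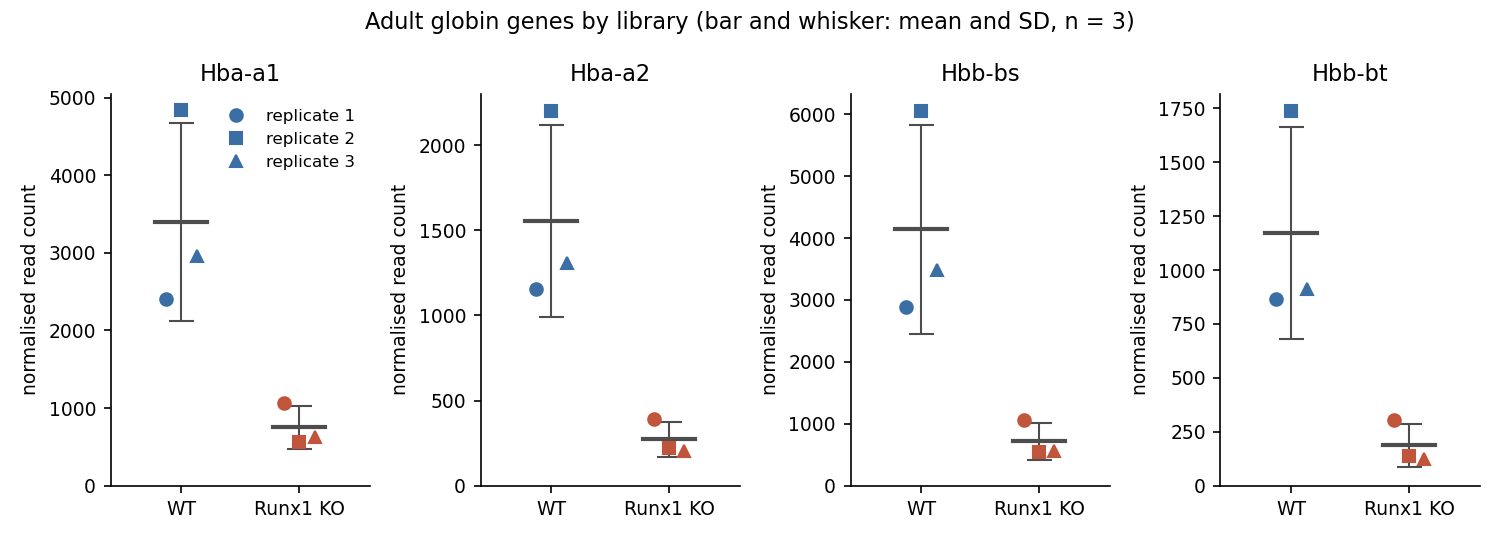
Normalised read count (y axis, linear, from 0) of Hba-a1, Hba-a2, Hbb-bs and Hbb-bt in each library, with bars and whiskers for the mean and SD (n = 3) and symbols for the replicate number. In each panel all libraries labelled Runx1 KO lie below all WT libraries, as for Hba-a1 with 559 to 1065 against 2409 to 4835.

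Divided by the length of the principal transcript, the order of levels in WT was Hbb-bs at 6593 ± 2681 normalised reads per kb (SD, n = 3), Hba-a1 at 4863 ± 1821, Hba-a2 at 2807 ± 1022 and Hbb-bt at 1667 ± 697. In the libraries labelled Runx1 KO it was Hbb-bs at 1144 ± 473, Hba-a1 at 1073 ± 393, Hba-a2 at 492 ± 185 and Hbb-bt at 267 ± 143, the same order on a lower level. Between Hbb-bs and Hba-a1 the group means differed by less than 1 SD in either group. Hbb-bs was above Hba-a1 in every library except replicate 3 labelled Runx1 KO, with 887 against 895. Hba-a1 and Hba-a2 differed by more than the SD of either gene in both groups, and so did Hba-a2 and Hbb-bt. These values divide by the whole transcript, but the copies share unequal parts of it. Of windows of 50 bases, 67.5% in Hba-a1 and 86.9% in Hba-a2 were shared. Whether reads from shared parts were counted is not known, so the order of single copies is uncertain.

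Globin reads, as counted, were a small part of each library. Whether reads that map to both copies were kept is not known, so the true shares may be higher. Together the 4 genes took 0.0276%, 0.0567% and 0.0346% of reads in WT replicates 1 to 3 and 0.0116%, 0.00589% and 0.00623% in the libraries labelled Runx1 KO. The mean share was 0.0396% ± 0.0152 (SD, n = 3) in WT and 0.0079% ± 0.00319 in the libraries labelled Runx1 KO. The Wilson 95% interval of the smallest share, 0.00589% in replicate 2 labelled Runx1 KO, ran from 0.0056% to 0.0062%, so the groups were far apart relative to counting error.

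Of 13 other names in the globin family, 3 were listed. Hbq1b, a theta-type alpha-like globin gene at chr11:32286965-32287784 between the adult alpha genes, had 8, 17 and 9 reads in WT and 5, 5 and 3 in the libraries labelled Runx1 KO, too few to be tested. The alpha pseudogene Hba-ps4 had 1 to 3 reads in every library and was not tested. Adgb, the gene of androglobin, had 24.7, 8.07 and 25.9 normalised reads in WT and 39.8, 31.7 and 27.8 in the libraries labelled Runx1 KO, with a log2 change of 0.87 (SE 0.45, limma adjusted p = 0.202).

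Within each library, the balance of beta to alpha reads was compared, a ratio in which the size factor cancels. There were 1.05, 1.11 and 1.03 beta-globin reads per alpha-globin read in WT and 0.938, 0.862 and 0.82 in the libraries labelled Runx1 KO. These are read ratios, not levels per length, and the groups did not overlap. On the log2 scale the ratio was 0.09 ± 0.05 (SD, n = 3) in WT and -0.20 ± 0.10 in the libraries labelled Runx1 KO, a difference of -0.29 with p = 0.1 in a two-sided exact permutation test and 0.118 adjusted over the 13 ratios and shares compared. With 3 libraries against 3 that test cannot go below 0.1. Each beta copy alone gave the same direction against alpha-globin, by -0.25 for Hbb-bs and by -0.41 for Hbb-bt.

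The share of alpha-globin reads assigned to Hba-a1 was 67.6%, 68.7% and 69.3% in WT and 73.2%, 71.6% and 75.3% in the libraries labelled Runx1 KO. The groups did not overlap, with means of 68.5% ± 0.855 and 73.4% ± 1.88 (SD, n = 3) and a difference of 4.82 percentage points (exact permutation p = 0.1, adjusted 0.118). The Wilson 95% intervals of the single shares, which cover counting error only, were 2.18 to 6.29 points wide. The highest upper bound in WT was 70.6%, in replicate 3. Above it lay the intervals of replicates 1 (70.8% to 75.4%) and 3 (72.3% to 78.1%) labelled Runx1 KO. That of replicate 2 with this label (68.3% to 74.6%) overlapped WT. Hbb-bs took 76.9%, 77.7% and 79.3% of beta-globin reads in WT and 77.8%, 79.8% and 81.8% in the libraries labelled Runx1 KO, and these overlapped (exact permutation p = 0.2, adjusted 0.217). Reads within the shared stretches above can be counted under either copy or under neither, and the part of such reads in these shares was not tested.

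Most of the tested transcription factors that act on the globin loci, 15 of 25, were not called, and more were called higher than lower. Of 26 factors of globin transcription and switching, 25 were tested, and 9 were called higher and 1 lower under the label Runx1 KO. Over all rows 10.6% were called higher and 11.3% lower. The median log2 change of the factors was 0.27, beside -0.00 over all rows. Klf1, the erythroid factor that binds the CACCC box of the adult beta-globin promoter, had 1107, 1512 and 1226 normalised reads in WT and 1516, 1990 and 3160 in the libraries labelled Runx1 KO. All of the latter lay above WT, though only just for replicate 1, and the log2 change of 0.74 (SE 0.26) missed the threshold (limma adjusted p = 0.0816), which it passed in DESeq2 (0.00746) and without replicate 1 labelled Runx1 KO (0.0239).

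Gata1, the erythroid GATA factor, had 1399, 1840 and 1517 in WT against 1917, 2187 and 3054, with a log2 change of 0.57 (SE 0.18, limma adjusted p = 0.0627), and it passed in DESeq2 (0.00863) and without replicate 1 labelled Runx1 KO (0.71, adjusted p = 0.031). Bcl11a, a repressor of embryonic and fetal globins, stood at 2726, 2328 and 2659 against 2916, 3055 and 3478, with a log2 change of 0.29 (SE 0.09, adjusted p = 0.0608), and it passed in DESeq2 (0.0292) and without the same library (0.35, adjusted p = 0.0483). In all 3 genes the libraries labelled Runx1 KO lay above WT, the opposite side from the globins, though none of the 3 was called in the main fit. Of the 25 factors tested, 13 had these libraries all above WT and 3 all below. Over all rows the shares were 21.4% above and 21.9% below. Among the genes called higher were Zfpm1, the GATA cofactor FOG1 (0.89, SE 0.12, adjusted p = 0.00382), Nfix (0.67, SE 0.07, adjusted p = 0.00208) and Myb, a progenitor factor (0.53, SE 0.09, adjusted p = 0.00768), each of which kept its call without any single library. Tal1, of the complex named above, rose by a log2 change of 0.72 (SE 0.15, adjusted p = 0.0188), a call lost without WT replicate 1 (0.0507), WT replicate 3 (0.0581) or replicate 2 labelled Runx1 KO (0.066). The other genes called higher, Lmo2, Ldb1, Nr2c1, Zbtb7a and Nr2c2, and Mbd2, called lower, are named here after their values were seen. Without replicate 2 labelled Runx1 KO, 5 genes of the list were called higher, and 1 was called lower without WT replicate 3 and 0 without each of the other libraries.

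Within each library, alpha-globin was set against Klf1. There were 3.22, 4.66 and 3.48 alpha-globin reads per Klf1 read in WT and 0.96, 0.392 and 0.263 in the libraries labelled Runx1 KO. The log2 ratio was 1.90 ± 0.28 (SD, n = 3) in WT and -1.11 ± 0.96 in the libraries labelled Runx1 KO, a difference of -3.01 without overlap (exact permutation p = 0.1, adjusted 0.118). Against Gata1 the difference was -2.85 and against Epor, the erythropoietin receptor, -2.95, again without overlap and with the same p. The 3 libraries labelled Runx1 KO were not alike: replicate 1 had the most globin and the least Klf1, Gata1 and Epor, and replicate 3 the most Klf1.

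Among heme synthesis genes, Alas2 fell with the globins. Of 12 tested, 1 was called lower and 0 higher by limma, beside 11.3% and 10.6% of all rows, with a median log2 change of 0.04. The gene called was Alas2, the red cell enzyme of the first step of heme synthesis. It had 597, 1501 and 679 normalised reads in WT and 186, 74.3 and 81.6 in the libraries labelled Runx1 KO, an 8.12-fold difference of means without overlap. Its log2 change was -3.01 (SE 0.45, limma adjusted p = 0.00616), called with every library left out in turn. Alpha-globin reads per Alas2 read numbered 5.97, 4.69 and 6.28 in WT and 7.81, 10.5 and 10.2 in the libraries labelled Runx1 KO, so the log2 ratio was higher in the latter by 0.75 (exact permutation p = 0.1, adjusted 0.118). Alas1, the enzyme of the same step in other cells, stood at 0.35 (SE 0.10, adjusted p = 0.0513) and is named after its value was seen. At an unadjusted p under 0.05, 2 genes of the list were higher, and 0 were called higher in edgeR and 1 in DESeq2. The number called higher was 2 with library totals or without replicate 1 labelled Runx1 KO, and 1 in limma-voom, with TMM scaling, with a minimum mean of 50 normalised reads, and without WT replicate 1.

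Genes of globin balance and protein quality control gave 0 called higher and 2 lower by limma of 15 tested. Over all rows 10.6% were called higher and 11.3% lower. The median log2 change of the list was -0.02, and 0 of its genes were higher at an unadjusted p under 0.05 or called so in edgeR or DESeq2. Atf4, the stress factor downstream of the heme-regulated kinase, had a log2 change of -0.42 (SE 0.06, limma adjusted p = 0.00665). Hmox1, the enzyme that degrades heme, stood at 1923, 3810 and 3525 normalised reads in WT and 1201, 1055 and 1962 in the libraries labelled Runx1 KO, which overlapped. Its log2 change was -1.12 (SE 0.31, adjusted p = 0.0439). That call was lost with library totals (-1.04, 0.0534), which left 1 gene of the list called lower, and without WT replicate 2 (0.127), WT replicate 3 (0.117), or replicates 1 (0.0878) or 2 (0.142) labelled Runx1 KO.

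Of 12 early erythroid markers, 4 were called higher and 0 lower by limma, beside 10.6% and 11.3% of all rows. Their median log2 change was 0.55. The number called higher was 7 without replicate 1 labelled Runx1 KO and 1 without replicate 2 of that label. It was 2 without replicate 3 of that label or without WT replicate 3. None was called lower in edgeR or DESeq2, and 0 were lower at an unadjusted p under 0.05. Mfsd2b, a lipid transporter of red cells and platelets, rose by a log2 change of 1.14 (SE 0.15, limma adjusted p = 0.00382), called with any library left out. Gfi1b, a repressor needed for red cell formation, rose by 1.11 (SE 0.23, adjusted p = 0.0173), a call lost without replicate 2 labelled Runx1 KO (0.056). Aqp9, a channel for water and glycerol, rose by 1.05 (SE 0.24, adjusted p = 0.0224), a call lost without WT replicates 2 (0.0713) or 3 (0.0651) or replicates 2 (0.0584) or 3 (0.0549) labelled Runx1 KO. Epor stood at 548, 788 and 559 normalised reads in WT and 726, 931 and 1458 in the libraries labelled Runx1 KO, with a log2 change of 0.68 (SE 0.26, adjusted p = 0.107, and 0.0279 in DESeq2 or 0.0395 without replicate 1 labelled Runx1 KO).

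Of 18 late erythroid markers tested, 2 were called higher and 2 lower, with a median log2 change of 0.20 and a range from -2.31 to 0.99. These counts are near the 10.6% called higher and 11.3% called lower over all rows. The number called lower was 4 in DESeq2, 1 in edgeR, limma-voom and with library totals, 1 without WT replicate 1, WT replicate 2 or replicate 1 labelled Runx1 KO, and 0 without replicates 2 or 3 of that label. Without replicate 1 labelled Runx1 KO 4 were called higher, and without replicate 2 only 1. Slc4a1, the anion exchanger band 3 of the red cell membrane, had 1781, 1435 and 876 normalised reads in WT and 699, 164 and 157 in the libraries labelled Runx1 KO. Its log2 change was -2.31 (SE 0.58, limma adjusted p = 0.0317). The call was lost in edgeR (0.0591) and without WT replicate 1 (0.0806), WT replicate 2 (0.0892), or replicates 2 (0.108) or 3 (0.0991) labelled Runx1 KO. Alpha-globin reads per Slc4a1 read were 2.00, 4.91 and 4.87 in WT and 2.08, 4.78 and 5.28 in the libraries labelled Runx1 KO, and they overlapped over nearly the whole range (exact permutation p = 0.7). Bpgm, the enzyme that makes the red cell effector of oxygen release, had a log2 change of -0.66 (SE 0.19, adjusted p = 0.0452), a call kept without WT replicate 1 and lost without each of the 5 other libraries (0.0598 to 0.133), in limma-voom (0.0581) and with library totals (0.0634). Aqp1, a water channel, rose by 0.99 (SE 0.20, adjusted p = 0.0152), a call lost without replicate 2 labelled Runx1 KO (0.0526), and Tmcc2 rose by 0.61 (SE 0.07, adjusted p = 0.00327).

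**Figure D2:**
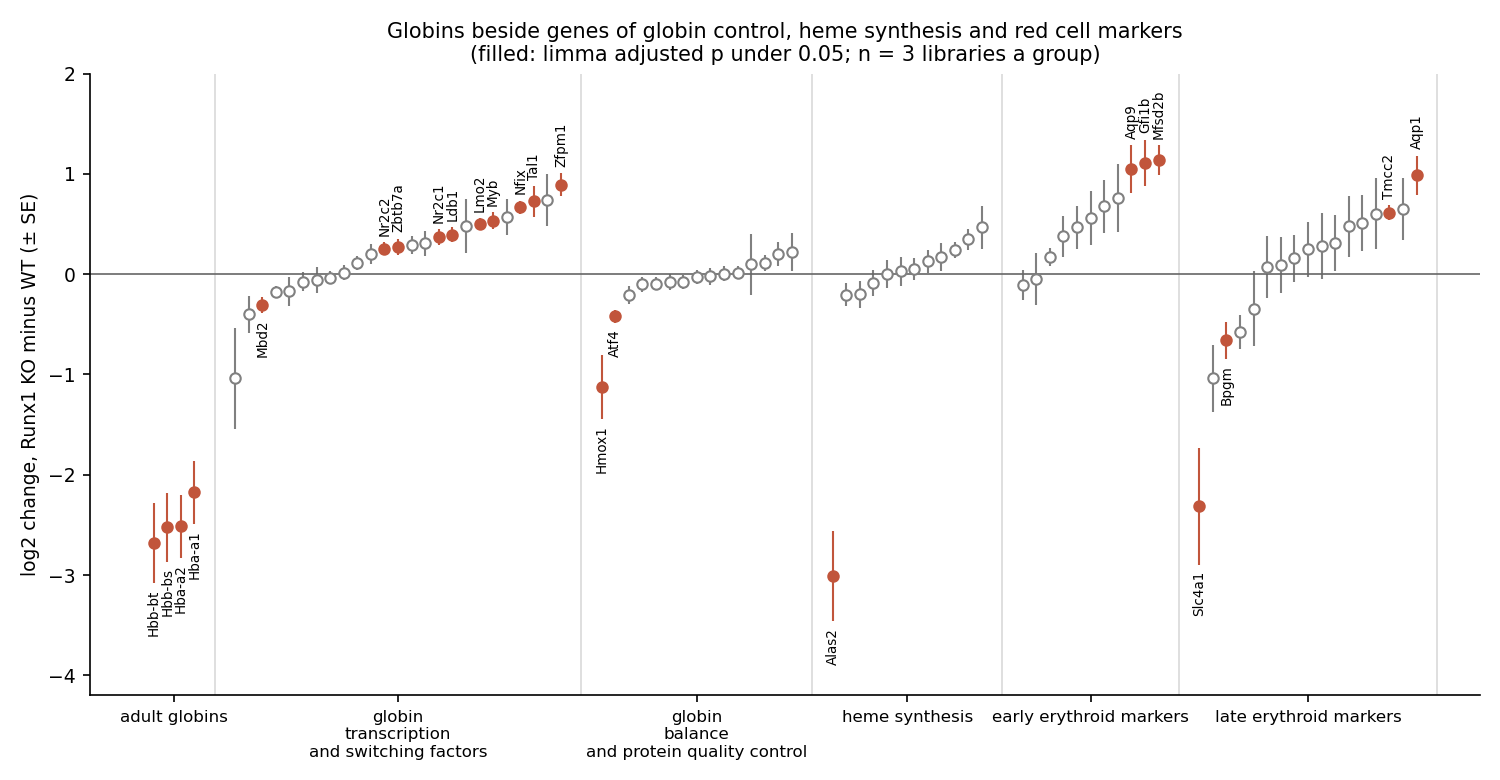
Log2 change between the libraries labelled Runx1 KO and WT (y axis, point and whisker: estimate and SE, n = 3 libraries a group) of the adult globins and of 5 gene lists along the x axis, with 2 list members left out, filled where the limma adjusted p was under 0.05. The 4 globins lie between -2.68 and -2.18, and of the other genes plotted only Alas2 (-3.01) and Slc4a1 (-2.31) lie as low as Hba-a1 (-2.18).

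**Figure D3:**
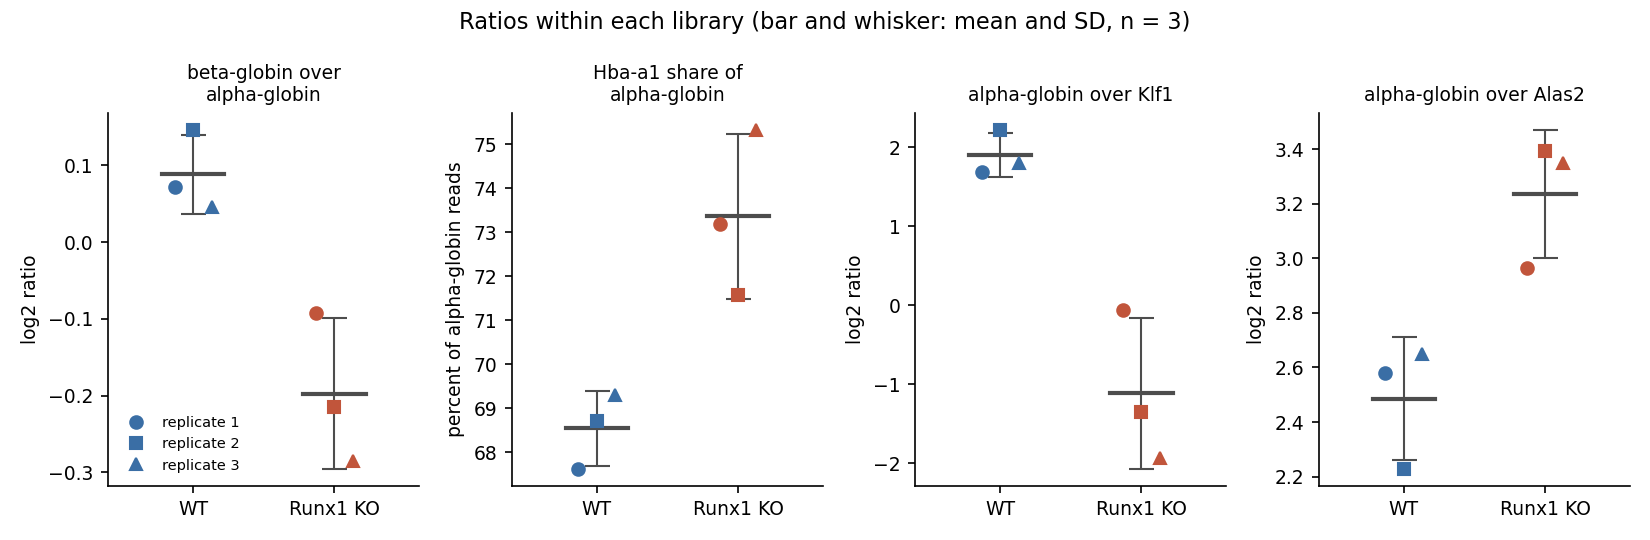
Ratios within each library for the log2 ratio of beta-globin to alpha-globin reads, the percentage of alpha-globin reads assigned to Hba-a1, and the log2 ratio of alpha-globin to Klf1 and to Alas2, with the mean and SD (n = 3). The axes do not start at 0, and in no panel do the groups overlap: the Hba-a1 share runs from 67.6% to 69.3% in WT and from 71.6% to 75.3% in the libraries labelled Runx1 KO.

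Of 15 protein-coding genes annotated within 250 kb of Hba-a1 and Hba-a2, 13 were listed and 10 that are not among the globins above were tested, of which 2 were called lower and 0 higher by limma, and 0 higher in edgeR or DESeq2 or at an unadjusted p under 0.05. Over all rows 11.3% were called lower and 21.9% in either direction, a share close to that of these neighbours. Nprl3, whose introns hold known alpha-globin enhancers and whose start lies at -15.8 kb from that of Hba-a1, had means of 654 ± 46.8 (SD, n = 3) normalised reads in WT and 751 ± 43.5 in the libraries labelled Runx1 KO. This was a log2 change of 0.20 (SE 0.09, adjusted p = 0.142). Mpg stood at 0.23 (adjusted p = 0.291), Rhbdf1 at 0.53 (adjusted p = 0.29), Snrnp25 at -0.26 (adjusted p = 0.0657) and Nsg2 at -0.72 (adjusted p = 0.367).

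On the other side of the alpha genes, beyond Hba-a2, Ubtd2 stood at 0.03 (limma adjusted p = 0.888) and Efcab9 at -0.43 (adjusted p = 0.393). Il9r, the interleukin 9 receptor gene, which lies on the side of Nprl3 at -83.2 kb from Hba-a1, stood at -1.69 (SE 0.59, adjusted p = 0.0818) and passed without replicate 1 labelled Runx1 KO (-2.32, adjusted p = 0.0144). The genes called lower lie on the side of Ubtd2 and were Sh3pxd2b, 64.3 kb away (-0.58, SE 0.11, adjusted p = 0.0109, and 0.0523 without replicate 2 labelled Runx1 KO), and Stk10, 249.8 kb away (-1.12, SE 0.15, adjusted p = 0.00432). Around the beta genes 38 protein-coding genes lie within 250 kb, most of them olfactory receptor genes, and the 2 listed were Hbb-bs and Hbb-bt themselves.

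**Figure D4:**
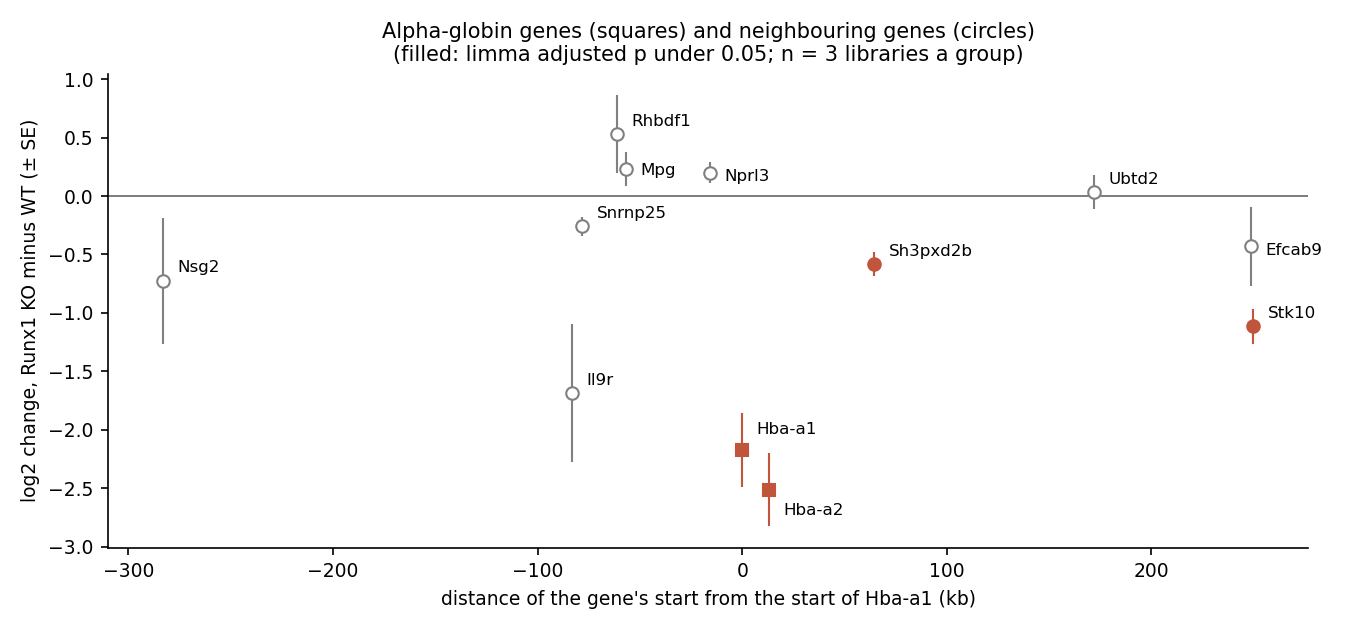
Log2 change (y axis, with SE, n = 3 libraries a group) of tested genes against the distance of their start from the start of Hba-a1 in kb (x axis), with squares for the alpha-globin genes and filled symbols for a limma adjusted p under 0.05. Hba-a1 (-2.18) and Hba-a2 (-2.51) lie below all neighbours, and the nearest tested neighbour, Nprl3, lies at 0.20.

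Alpha-globin and beta-globin varied together over the 6 libraries, with a Pearson r of 0.9997 on the log2 scale. This r was taken over both groups together, so it includes the difference between them and is a description only. Among 12265 genes with a mean of at least 50 normalised reads, 369 had r above 0.95 with alpha-globin, so high values were not rare. The 6 closest were Alas2 (0.9991), Cp (0.9987), Atp5j2 (0.9978), mt-Nd2 (0.9972), Rbm8a (0.9969) and mt-Co2 (0.9967). Cp, the gene of the iron oxidase ceruloplasmin, had 110, 165 and 121 normalised reads in WT and 70.1, 52.5 and 52.7 in the libraries labelled Runx1 KO. Its log2 change was -1.15 (SE 0.22, limma adjusted p = 0.0126, and 0.056 without replicate 2 labelled Runx1 KO). The mitochondrial genes mt-Nd2 (-0.44, adjusted p = 0.00901) and mt-Co2 (-0.59, adjusted p = 0.0152, and 0.0695 or 0.0536 without replicates 2 or 3 labelled Runx1 KO) had smaller log2 changes than the globins.

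Markers of other cells that a c-Kit+ preparation could hold moved as well. For the counts below, 11.3% of all rows were called lower and 10.6% higher. Of 12 neutrophil markers, 8 were called lower and 0 higher by limma, with a median log2 change of -1.51, and their summed level was 315125 to 406672 normalised reads in WT and 160090 to 222099 in the libraries labelled Runx1 KO. Of 10 B-cell markers, 8 were called lower and 0 higher, with a median of -3.99 and sums of 7538 to 32773 against 1123 to 3060. Without replicate 2 labelled Runx1 KO, 4 neutrophil and 3 B-cell markers were called lower, and 5 and 4 B-cell markers without WT replicate 3 and replicate 3 labelled Runx1 KO. Of 12 markers of the macrophages that hold red cell islands in the marrow, 3 were called lower and 0 higher, with a median of -0.49 and overlapping sums of 17320 to 27211 against 15189 to 21191, with 0 called lower without WT replicate 2 or 3, 1 without replicate 1 or 2 labelled Runx1 KO, and 6 without WT replicate 1. DESeq2 called 5 of these macrophage markers lower and edgeR 3. Of 9 megakaryocyte and platelet markers tested, 5 were called higher and 0 lower, with a median of 0.76 and sums of 4711 to 5611 against 5968 to 9171, and 3 without WT replicate 1, WT replicate 2 or replicate 2 labelled Runx1 KO. In edgeR and DESeq2, as at an unadjusted p under 0.05, 0 neutrophil, B-cell and macrophage markers were higher, while of the platelet markers 1 was lower at an unadjusted p under 0.05 and in DESeq2 and 0 in edgeR. The sums of the late erythroid markers were 20506 to 32137 in WT and 27186 to 48022 in the libraries labelled Runx1 KO, and those of the early erythroid markers 38294 to 51757 against 44416 to 71641. The largest log2 changes in the neutrophil, B-cell and platelet lists were those of Ngp, a granule protein gene (-2.64, limma adjusted p = 0.00864), Ms4a1, the gene of CD20 (-5.97, adjusted p = 0.00432), and Treml1, a platelet receptor gene (2.31, adjusted p = 0.0023). No marker of these lists was at 0 in any library, and the part of these cells in the globin difference was not tested.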

How the data were processed

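Gene expression was measured by stranded, poly-A selected RNA sequencing of 3 libraries labelled WT and 3 labelled Runx1 KO. HISAT2, HTSeq 0.9.1 and the builds mm10 and GRCm38 are named in the submitters' processing notes. Whether reads that map to several places were kept, and whether strand was used in counting, is not given in the sources used here. The deposited values are a signal, gene read counts that the authors appear to have scaled by 1 size factor per library: in every library 100% of values were whole multiples, within 0.001, of the smallest positive value. That division is read from the values, not from a label. Recovered reads numbered 23297526 to 26793380 per library.

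Hba-a1 and Hba-a2, and Hbb-bs and Hbb-bt, were summed before the fit, which left 20095 rows. Rows were filtered with edgeR 4.0.16 filterByExpr on the normalised values (minimum count 10, minimum total 15), which left 15408 rows and 4687 untested. Log2(value + 1) was tested with limma 3.58.1 (lmFit and eBayes with a trend, group only, R 4.3.3) and Benjamini-Hochberg adjustment over all rows tested, two-sided, with a threshold of 0.05. Fold changes are on the log2(value + 1) scale, which understates those of low genes. Values for each copy come from the same fit with copies kept as separate rows. Ratios were compared with exact permutation tests over libraries (scipy 1.17.1). Wilson 95% intervals and the limit of 3 reads cover counting error only. Scripts were tested on simulated data.

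The members, gene lists and motifs were chosen with earlier results of these data known. Named are all members, the listed genes of the globin family, called genes of each other list up to the 4 with the largest change, Klf1, Gata1, Bcl11a, Alas2, Epor, Slc4a1, Nprl3 and Runx1, the protein-coding neighbours within 250 kb and the 6 genes most like alpha-globin; others are said to be chosen after their values were seen. Gene positions come from GENCODE M21 and promoters from RefSeq. Some list members enter the counts and are not reported here by name. The change of Ahsp was to be tested and was not analysed here. Alternatives were edgeR, DESeq2 1.42.0, limma-voom, other scalings, pseudocounts of 0.5 and 5, other filters, a replicate block, and each library left out.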

Additional observations from a re-analysis of the deposited data

How the results depend on the processing

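The globin calls held in every fit run. With all libraries kept, over 11 alternative settings, the log2 change of alpha-globin ran from -2.28 to -2.19 (highest adjusted p 0.00876) and that of beta-globin from -2.56 to -2.48 (0.00852). With each library left out in turn they ran from -2.56 to -1.99 (adjusted p 0.00297 to 0.0238) and from -2.90 to -2.25 (0.00268 to 0.0245), where a group of 2 is assumed to vary like the other. The difference between groups in the log2 ratio of beta to alpha ran from -0.34 to -0.24 when a library was left out, where its exact permutation test cannot go below 0.2. Ahsp could not be run.

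The number of genes called, 3367 here, ran from 3011 to 3916 with all libraries and from 1365 to 3595 with a library left out. It was 2205 without WT replicate 2 (2046 shared), 1365 without replicate 2 labelled Runx1 KO (1328 shared) and 1764 without replicate 3 of that label (1673 shared), fits with fewer samples. Scaling to library totals gave 2383 higher and 1371 lower, against 1631 and 1736, and shifted the median log2 change of all genes to 0.08. Both globins stayed lower under every scaling run.

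A pair of values that were not called changed sign when a library was left out. The log2 change of Ubtd2, 0.03, ran from -0.049 (without WT replicate 2) to 0.0846 and was -0.0317 without replicate 1 labelled Runx1 KO. The difference in the log2 ratio of alpha-globin to Slc4a1, 0.05, ran from -0.38 to 0.47 and was -0.38, -0.13 and -0.20 without WT replicate 1 and replicates 2 and 3 labelled Runx1 KO. The cause was not tested. Of 595 values of other named genes with all libraries kept, 573 kept their side of the threshold, 15 passed it anew and 7 lost it. With a library left out, 243 of 300 such values kept their side, 5 passed anew, 50 lost the call and 2 changed sign.

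The titles number the replicates 1 to 3 in both groups. Same-numbered libraries had correlations of 0.29, 0.13 and -0.01 of their deviations from the group means, and 0.17 with all numbers pooled. Replicate 3 labelled Runx1 KO correlated best with WT replicate 2 (0.24). The titles do not state pairs and these values do not settle the question. The main fit therefore has no pairing, and fits with a replicate block are given beside it. With the replicate block, limma called 3844 genes and edgeR 3685, the alpha-globin change was -2.27 (adjusted p = 0.0067) and that of beta-globin -2.56 (adjusted p = 0.0063). Klf1 (0.0418), Gata1 (0.0382) and Bcl11a (0.0436) passed in limma with the block, and Itga2b did not (0.0525). In both fits with the block 1 heme synthesis gene was called higher and 4 macrophage markers lower.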
